A study of Arabidopsis thaliana with 8 samples.

Results

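The genes described here encode proteins of the cytosolic ribosome in Arabidopsis thaliana. They were taken as every gene of nuclear chromosomes 1 to 5 whose deposited protein description named a 60S, 60S acidic or 40S ribosomal protein, without the words mitochondrial or chloroplastic. The rule found 237 of 32833 genes, 138 of the large (60S) subunit and 99 of the small (40S) subunit. By protein name they fell into 80 families of paralogs, 48 of the 60S and 32 of the 40S subunit, with 2 to 7 genes each. The rule used no expression value. It also took in 3 genes described as L18a-like proteins (AT1G17080, AT1G53560 and AT3G14595), and counts are given with and without them where they matter.

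RNA was sequenced from seedlings in 8 libraries: 3 of wild type Col-0 (WT), 2 of RNAi line 5 and 3 of RNAi line 12. Both lines are RNA interference knockdowns of RLI2, listed as ABCE2 (AT4G19210), the Arabidopsis form of the recycling factor that parts the 60S from the 40S subunit once translation ends. Seeds of all groups were kept cold (4 °C, 3 days) on diluted MS medium and seedlings then grew for 7 days (22 °C, 16 h light, 8 h dark). Each line is a single transgenic line, and the sources used here do not give the promoter of its construct. ABCE2 read 57.5, 57.8 and 58.6 FPKM (fragments scaled by gene length and library depth) in WT, 25.0 and 26.4 in line 5, and 26.7, 26.4 and 23.3 in line 12. WT did not overlap either line, and the lines overlapped each other.

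A ribosome is built from ribosomal RNA and a fixed set of proteins, mostly with 1 copy of each protein per particle, so plant cells make the proteins of both subunits in concert. In Arabidopsis each protein is encoded by several paralogous genes, often with 1 or more dominant copies and others expressed at low levels or in particular tissues. Ribosomal protein transcripts are known to be abundant in growing and dividing tissue, and many of their promoters carry short elements called site II (GGCCCA) and telo-box (AAACCCTA).

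Libraries differed little in depth: the steps of the lowest values implied 42310000 to 49040000 fragments each. Reads of ribosomal RNA took 0.192% to 0.412% of fragments in WT, 0.468% and 2.18% in line 5, and 0.161%, 2.34% and 7.60% in line 12. Marker genes of some tissues were lower in the RNAi libraries, and their part in the results below was not tested. Summed root markers ranged from 1423 to 1806 FPKM in WT, 663 to 991 in line 5 and 559 to 1017 in line 12, with 3 of 4 tested genes lower and most of the sum in PYK10. Summed shoot meristem markers ranged from 13.8 to 18.5, 8.74 to 9.82 and 9.04 to 11.4 FPKM (both of 2 tested genes lower, CLV3 and WUS at or near 0), and summed markers of dividing cells from 34.8 to 39.1, 28.8 to 29.8 and 25.6 to 27.5 FPKM (3 of 7 lower). The 3 lower ones were CDKB1;1, CYCD3;1 and MCM5, while CYCB1;2, KNOLLE, CDKB2;1 and AUR1 did not pass. Of 5 leaf markers 1 was higher and 2 were lower, and 1 tested seed storage gene of 4 did not pass. These marker counts are for the mean of both lines, where 28.1% of all tested genes were higher and 28.1% lower. In bulk seedling RNA, fewer cells of a type and less RNA per cell cannot be told apart. The labels do not say whether replicates were grown apart, so the spread behind each p-value may be partly or wholly technical.

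Upstream sequences are shown for paralogs that moved apart between WT and the RNAi lines, chosen after their values were seen. Each is the 250 bases before the annotated gene start (RefSeq, TAIR10.1), 5′ to 3′ on the gene's strand, with site II (GGCCCA or TGGGCC) and telo-box (AAACCCTA or TAGGGTTT) matches in capitals. The P0 pair lies at chr3:3521079-3521328 (plus strand) for RPP0C and chr2:16710773-16711022 (minus strand) for RPP0A. The L7 pair lies at chr2:134456-134705 (minus strand) for RPL7B and chr3:4432797-4433046 (plus strand) for RPL7D. The S2 pair lies at chr2:17461540-17461789 (minus strand) for RPS2C and chr3:21281065-21281314 (minus strand) for RPS2D. The S9 pair lies at chr5:4936430-4936679 (minus strand) for RPS9B and chr5:15949660-15949909 (plus strand) for RPS9C. In each pair the first paralog held at least 1 site II match and the second held none. In the S9 pair only RPS9C passed the test (below). The L18a family, whose paralogs also passed in opposite directions, is not shown.
RPP0C: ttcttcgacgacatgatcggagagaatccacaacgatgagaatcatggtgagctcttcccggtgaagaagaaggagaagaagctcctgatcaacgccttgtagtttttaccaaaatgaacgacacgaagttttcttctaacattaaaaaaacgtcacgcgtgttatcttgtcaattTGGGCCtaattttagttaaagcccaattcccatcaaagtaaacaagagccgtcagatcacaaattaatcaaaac
RPP0A: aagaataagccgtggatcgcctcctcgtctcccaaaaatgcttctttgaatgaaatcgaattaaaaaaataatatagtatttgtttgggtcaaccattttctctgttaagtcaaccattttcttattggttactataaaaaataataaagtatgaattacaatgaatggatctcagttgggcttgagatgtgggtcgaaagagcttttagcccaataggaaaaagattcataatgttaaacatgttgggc
RPL7B: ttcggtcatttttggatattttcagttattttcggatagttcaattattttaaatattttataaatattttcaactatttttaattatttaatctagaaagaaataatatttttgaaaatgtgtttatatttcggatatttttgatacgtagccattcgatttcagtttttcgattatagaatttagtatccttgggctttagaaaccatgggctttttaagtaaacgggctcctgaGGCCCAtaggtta
RPL7D: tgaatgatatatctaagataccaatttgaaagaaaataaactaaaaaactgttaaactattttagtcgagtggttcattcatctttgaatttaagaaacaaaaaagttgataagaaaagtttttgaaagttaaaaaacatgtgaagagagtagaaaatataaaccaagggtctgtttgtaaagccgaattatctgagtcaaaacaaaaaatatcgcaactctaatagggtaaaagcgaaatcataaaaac
RPS2C: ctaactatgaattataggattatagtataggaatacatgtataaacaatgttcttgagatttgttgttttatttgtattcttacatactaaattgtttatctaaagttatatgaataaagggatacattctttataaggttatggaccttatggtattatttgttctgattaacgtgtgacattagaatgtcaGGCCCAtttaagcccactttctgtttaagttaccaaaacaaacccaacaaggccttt
RPS2D: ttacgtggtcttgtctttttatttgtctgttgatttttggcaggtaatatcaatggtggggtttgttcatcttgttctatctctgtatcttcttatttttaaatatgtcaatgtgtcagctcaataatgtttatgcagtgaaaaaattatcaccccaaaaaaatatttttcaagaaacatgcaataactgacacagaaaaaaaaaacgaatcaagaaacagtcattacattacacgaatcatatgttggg
RPS9B: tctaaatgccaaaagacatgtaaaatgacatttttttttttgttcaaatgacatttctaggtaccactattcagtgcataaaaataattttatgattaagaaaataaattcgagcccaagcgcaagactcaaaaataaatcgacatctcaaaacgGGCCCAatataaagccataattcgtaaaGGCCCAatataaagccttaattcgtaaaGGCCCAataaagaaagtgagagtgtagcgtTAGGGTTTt
RPS9C: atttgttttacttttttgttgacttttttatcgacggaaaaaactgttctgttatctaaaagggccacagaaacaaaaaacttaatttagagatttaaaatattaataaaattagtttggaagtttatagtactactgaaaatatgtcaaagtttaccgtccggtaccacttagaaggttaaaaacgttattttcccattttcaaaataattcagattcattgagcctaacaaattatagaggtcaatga

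Over all 237 members, 129 upstream windows held site II (54.4%), against 3743 of 27419 windows of protein-coding genes (13.7%). The telo-box was found in 50 member windows (21.1%) and in 4.48% of all windows. Both strands were searched, and by their letters a match of one motif can share at most 1 end base with a match of the other. Windows of the members that fell in the RNAi lines (below) held site II in 56 of 94 cases (59.6%) and those of members that did not pass the test in 62 of 113 (54.9%). Of the 11 members that rose, 1 window held it (9.09%), that of RPS24B, and 1 of 9 without the L18a-like genes. The telo-box was found in 20 of 94 and 2 of 11 windows, respectively. These matches are a description of letters, and the members were sorted by the same libraries.

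Transcripts of both subunits were lower in the RNAi libraries in sum. The 138 60S genes together gave 22411, 21872 and 24718 FPKM in WT, 21403 and 20198 in line 5, and 18721, 20785 and 18180 in line 12. Together the 99 40S genes gave 14623, 14393 and 16130 FPKM in WT, 14137 and 13424 in line 5, and 12473, 13438 and 12264 in line 12. Every RNAi library was below every WT library in both sums, WT replicate 3 was the highest library, and the lines overlapped each other. Line 5 averaged 90.4% of the WT mean for 60S and 91.6% for 40S, and line 12 averaged 83.6% and 84.6%. The ratio of the 60S to the 40S sum was 1.53 ± 0.0074 (SD, n = 3) in WT, 1.51 ± 0.0066 (n = 2) in line 5 and 1.51 ± 0.033 (n = 3) in line 12. Of the line 12 libraries only replicate 2 (1.55) lay above the WT libraries, and the others lay below them. In replicate 2 the 40S gene RPS16C was near 0 (below). The S16 family summed to 97.6 FPKM there, against 408 and 370 in line 12 replicates 1 and 3. The part of RPS16C in the ratio and its spread was not tested. Together the members held 5.94% to 6.52% of the summed FPKM in WT, 5.33% and 5.73% in line 5, and 4.87% to 5.68% in line 12. These sums carry no test, since they are scores over chosen genes.

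**Figure D1:**
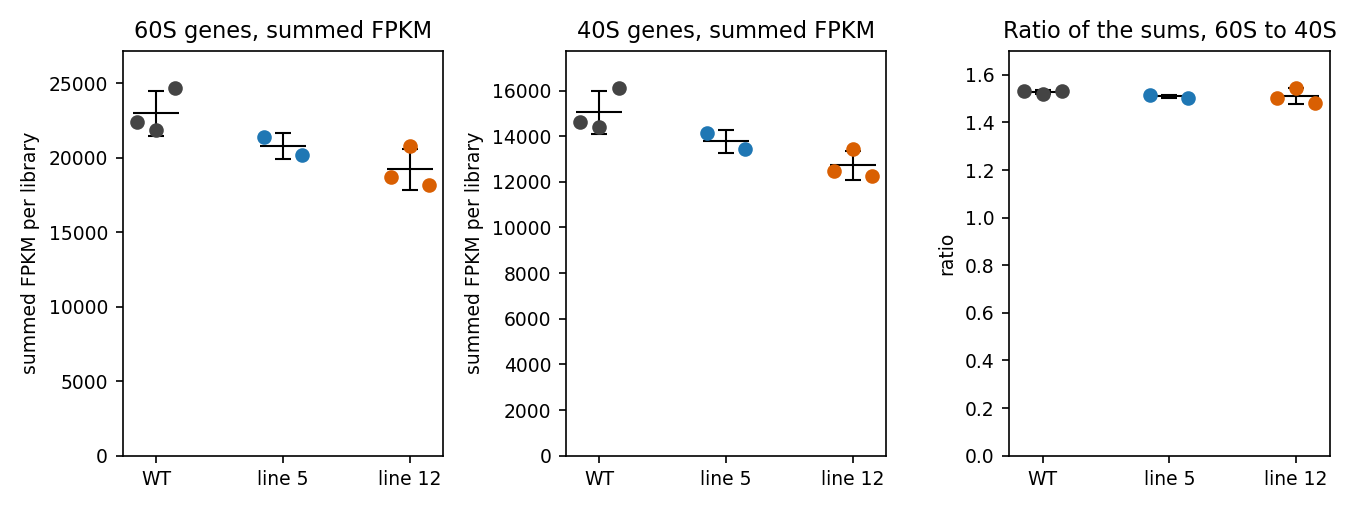
Summed FPKM of the 60S genes, of the 40S genes, and the ratio of both sums, by group; points are libraries, the horizontal mark and bar are the mean and SD. In both sums all 5 RNAi libraries lie below the 3 WT libraries, while the ratio stays between 1.48 and 1.55 in all 8.

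Of the 237 genes, 218 passed the filter of at least 1 FPKM in at least 2 libraries (128 of the 60S and 90 of the 40S subunit). The other 19 reached at most 1.09 FPKM in any library, and 6 of them were listed at 0 in every library. Expression was high in most members, with 208 at 10 FPKM or more in WT. The filter did not depend on the RNAi groups for 216 tested members, which reached 1 FPKM in every WT library. The other 2, RPP2E and AT5G24510, were under 1 FPKM in every WT library and passed through RNAi libraries alone, so a higher call in them was favoured by the filter and supports nothing.

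Each gene was tested with limma on log2(FPKM + 1), adjusted over all tested genes at a threshold of 0.05. For the mean of both lines against WT, 11 members were higher and 94 lower. Over all 19395 tested genes 28.1% were higher and 28.1% were lower, so the members' 43.1% lower stood above that background and their 5.05% higher below it. The median log2 change was −0.14 over the 60S genes (7 higher, 54 lower of 128) and −0.19 over the 40S genes (4 higher, 40 lower of 90), against −0.0059 over all tested genes. Without the L18a-like genes 9 members were higher and 94 lower of 215, and without RPP2E 10 were higher. Without WT replicate 3 the 60S median was −0.094. Abundant genes as a whole leaned the same way: of 2077 genes with a mean of at least 50 FPKM, 26.2% were higher and 38.4% lower. The count of higher members was 7 without WT replicate 1 and 7 without WT replicate 2.

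In line 5 against WT, 8 members were higher and 53 lower. All tested genes gave 22.2% higher and 22.3% lower, so the members' lower share of 24.3% was near the background, while 3.67% higher was under it. Of the genes with a mean of at least 50 FPKM, 22.8% were higher and 31% lower in line 5. The 60S subunit had 5 higher and 31 lower, and the 40S subunit 3 higher and 22 lower. The 60S median in line 5 was −0.061 without WT replicate 3, −0.063 without line 5 replicate 2 and −0.17 without line 5 replicate 1, against −0.11 with all libraries, and the 40S median was −0.072 without WT replicate 3, against −0.12. The lower count was 35 without WT replicate 3, 30 without line 5 replicate 1 and 26 without line 5 replicate 2. The higher count was 4 without WT replicate 1, without WT replicate 2 or without line 5 replicate 1, and 5 without line 12 replicate 3.

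In line 12 against WT, 14 members were higher and 110 lower, where all tested genes gave 28.3% higher and 27.7% lower. Of all genes with a mean of at least 50 FPKM, 26.5% were higher and 40.9% lower in line 12. The lower members were 66 of 128 in the 60S subunit (51.6%) and 44 of 90 in the 40S subunit (48.9%). The higher count was 9 without WT replicate 1. Both comparisons share the 3 WT libraries. Every RNAi library lay below every WT library for 88 members (51 of the 60S and 37 of the 40S subunit, with 24.7% of all tested genes) and above for 10 (24.1% of all tested genes).

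**Figure D2:**
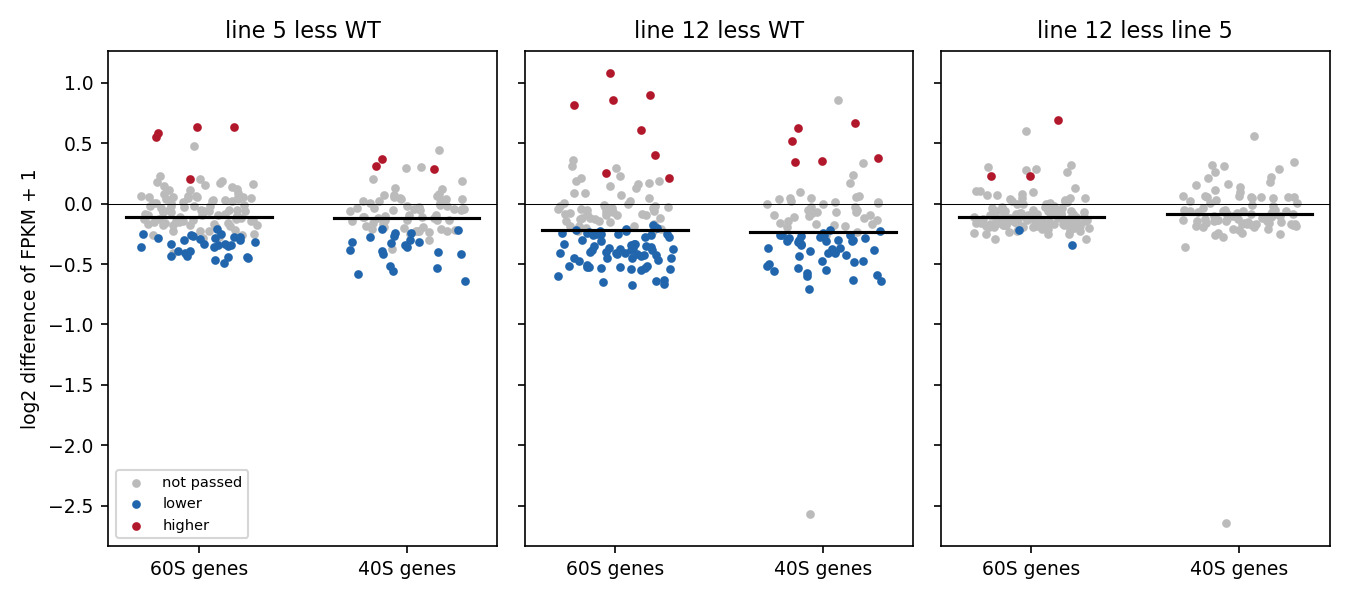
Log2 difference of FPKM + 1 for each tested 60S gene (128) and 40S gene (90) in line 5 less WT, line 12 less WT and line 12 less line 5; points are genes, coloured by whether they passed the test, and bars are medians. The medians are −0.11 and −0.12 in line 5 and −0.22 and −0.23 in line 12, and the lone low point in both panels with line 12 is RPS16C, which rests on 1 library.

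Of all 218 tested members 179 had a mean of at least 50 FPKM (82.1%), as did 84 of the 94 lower members (89.4%) and 4 of the 11 higher members (36.4%). Of 68 members with a mean of at least 200 FPKM, 1 was higher and 36 were lower (52.9%) in the mean of both lines, where all genes of that level gave 16.1% higher and 43.0% lower. Of 111 members between 50 and 200 FPKM, 3 were higher and 48 lower (43.2%), against 28.4% and 37.4% of all genes. Of 30 members between 10 and 50 FPKM, 6 were higher and 8 lower (26.7%), against 32.8% and 27.9% of all genes. Of 9 tested members under 10 FPKM, 1 was higher (11.1%) and 2 were lower (22.2%), against 24.7% and 25.9% of all genes of that level. The higher one was RPP2E, whose call supports nothing (above). Among the most abundant genes of each family, 2 of 80 were higher and 44 lower (55%). Among the other tested paralogs, 9 of 138 were higher and 50 lower (36.2%).

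**Figure D3:**
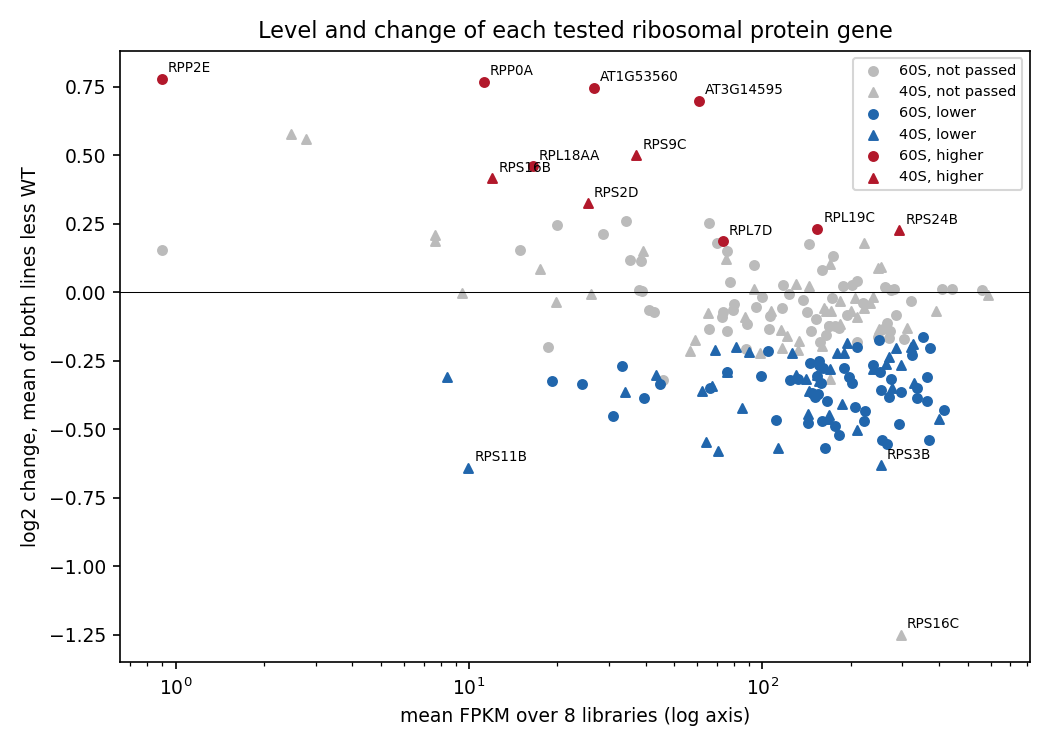
Mean FPKM over 8 libraries (log axis) against the log2 change in the mean of both lines less WT for the 218 tested genes; circles are 60S and triangles 40S genes, blue marks lower and red higher genes by the test. Of the 11 red genes 7 have a mean under 50 FPKM, and 84 of the 94 blue genes have a mean of at least 50 FPKM, as do 179 of all 218.

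Small subunit proteins included the members that fell most. RPS3B (AT3G53870), a paralog of S3 at the mRNA entry of the small subunit, read 312, 314 and 354 FPKM in WT, 219 and 223 in line 5, and 195, 215 and 189 in line 12. WT did not overlap either line, and the log2 change in the mean of both lines was −0.63 ± 0.064 (SE, adjusted p = 0.000119). RPS11B (AT4G30800) read 12.5, 12.5 and 14.2 FPKM in WT, 8.07 and 7.96 in line 5, and 7.35, 8.90 and 7.88 in line 12 (−0.64 ± 0.074, adjusted p = 0.000226). RPS17A (AT2G04390) read 141, 140 and 145 FPKM in WT, 95.2 and 94.1 in line 5, and 93.9, 99.6 and 94.9 in line 12 (−0.57 ± 0.040, adjusted p = 2.00e-05). All RNAi libraries of both genes lay below all WT libraries. RPS17A shares 98.4% of its coding bases with RPS17B, so reads may have been split between them. RPS28A (AT5G03850) and RPS20B also fell (log2 −0.58 and −0.55), with RNAi libraries between 53.6 and 62.7 FPKM and between 51.7 and 59.7 FPKM and WT libraries from 80.9 and 75.8 FPKM upwards. RPS23B, whose protein sits at the decoding center and which held 98.6% to 99.8% of its family's FPKM, fell by 0.46 on the log2 scale.

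Other abundant small subunit genes did not pass. RPS8A (AT5G20290), the most abundant member, read 577, 565 and 639 FPKM in WT, 637 and 578 in line 5, and 554, 616 and 543 in line 12. Its groups overlapped, and the log2 change was −0.011 with a 95% interval from −0.17 to 0.15. RPS9B and RPS5B did not pass either (adjusted p = 0.417 and 0.268). S5 is a protein of the mRNA exit side, and its family is 1 of 17 with no member that passed.

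S6, the small subunit protein that S6 kinases phosphorylate downstream of TOR, is encoded by a pair of genes with opposite signs. RPS6B read 288, 288 and 320 FPKM in WT, 266 and 254 in line 5, and 235, 263 and 243 in line 12. All RNAi libraries lay below WT, and RPS6B fell in the mean of both lines (−0.24 ± 0.059, adjusted p = 0.0108). RPS6A read 195, 199 and 208 FPKM in WT, 178 and 233 in line 5, and 233, 285 and 249 in line 12. Line 5 libraries lay on either side of WT, while line 12 was above it and rose (0.34 ± 0.11, adjusted p = 0.0315). RPS6A made up 39.4% to 40.9% of the pair's FPKM in WT, 40.1% and 47.8% in line 5, and 49.7% to 52.0% in line 12. The kinase genes also went opposite ways. S6K1 (listed as ATPK1) averaged 63.7 ± 2.6 FPKM (SD, n = 3) in WT, 41.7 ± 3.9 (n = 2) in line 5 and 38.2 ± 2.4 (n = 3) in line 12, and S6K2 (ATPK2) averaged 8.26 ± 2.1, 29.5 ± 1.2 and 21.4 ± 2.2 FPKM.

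Large subunit genes that fell included members of L4, L7, L11, L14, L37a and L39. RPL7B (AT2G01250) read 324, 320 and 358 FPKM in WT, 251 and 239 in line 5, and 205, 225 and 199 in line 12 (−0.56 ± 0.062, adjusted p = 0.000192). RPL37AC (AT3G60245), the only tested gene of L37a, read 453, 451 and 484 FPKM in WT, 340 and 344 in line 5, and 293, 306 and 285 in line 12 (−0.54 ± 0.047, adjusted p = 5.65e-05). In both genes WT was highest and line 12 lowest without overlap. AT2G25210, an L39 gene whose protein lines the exit tunnel, fell by 0.57 on the log2 scale, from a WT mean of 207 ± 30 FPKM (n = 3) to 149 ± 2.7 (n = 2) and 129 ± 4.4 (n = 3), while its paralog RPL39B gave 0.12 (adjusted p = 0.315). RPL4A and RPL4D, encoding L4 of the tunnel wall, both fell (−0.31 and −0.42), as did all 4 genes of L11 (−0.28 to −0.34), a partner of 5S ribosomal RNA. RPL14B, at 500 ± 34 FPKM in WT the second most abundant 60S gene, fell by 0.43 on the log2 scale.

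The most abundant 60S gene did not pass. RPL19A (AT1G02780) read 545, 534 and 595 FPKM in WT, 591 and 558 in line 5, and 542, 595 and 507 in line 12. These libraries overlapped, and the log2 change was 0.0076 with a 95% interval from −0.15 to 0.16. RPL10A, which encodes a protein that joins late at the subunit's core and is known in Arabidopsis as a target of the NIK1 immune pathway, gave 0.011 (−0.16 to 0.18). The L10 family held no member that passed, nor did the L5 family, the other partner of 5S ribosomal RNA (adjusted p = 0.115 for RPL5B and 0.239 for ATL5). RPL24B, whose loss in Arabidopsis is known to impair reinitiation after upstream reading frames, gave −0.082 (−0.28 to 0.12), while its paralog RPL24A fell by 0.37 on the log2 scale (adjusted p = 0.00249). The difference between these paralogs was not tested.

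**Figure D4:**
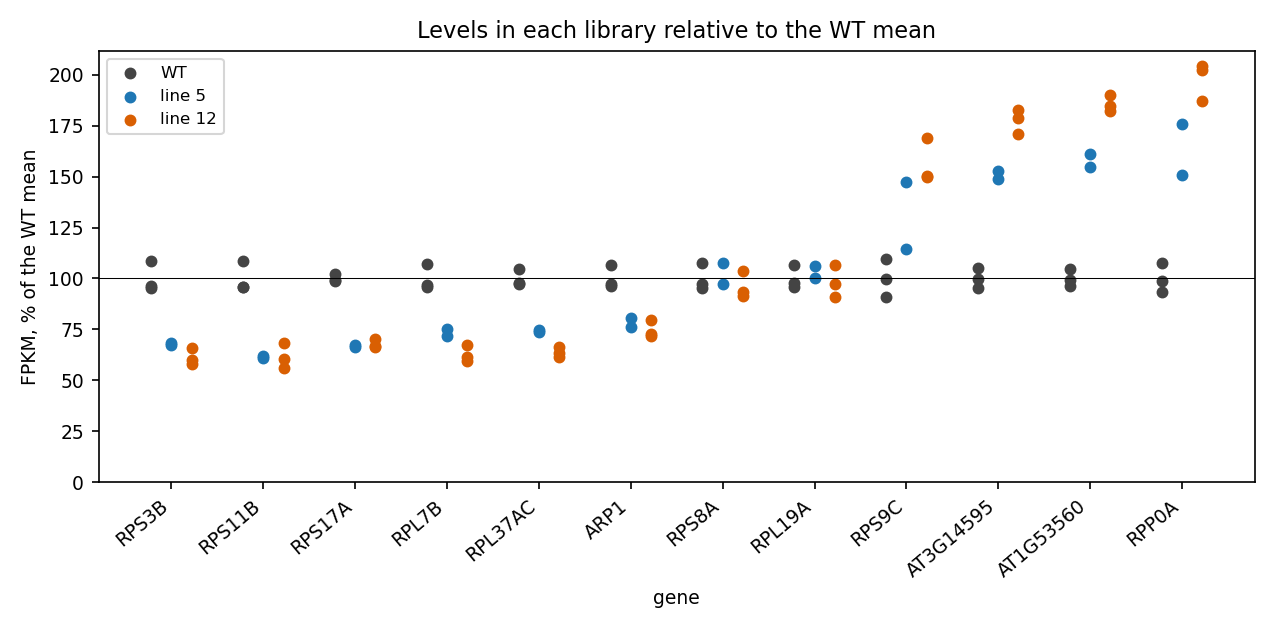
FPKM in each library as a percent of the WT mean for 12 genes; points are libraries, coloured by group, and the line marks the WT mean. The 6 genes on the left lie under the WT libraries in every RNAi library, RPS8A and RPL19A overlap WT, and the 4 genes on the right lie above it.

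The acidic P proteins form the stalk of the 60S subunit that recruits and activates elongation factors, with P0 as its base. RPP0A (AT2G40010), the lowest of 3 P0 genes, read 6.87, 7.25 and 7.91 FPKM in WT, 12.9 and 11.1 in line 5, and 13.8, 14.9 and 15.02 in line 12. WT lay below both lines, and RPP0A rose in the mean of the lines (0.77 ± 0.071, adjusted p = 7.28e-05). An lncRNA gene on the other strand, AT2G40008, covers 49.5% of RPP0A and read at most 0.176 FPKM. RPP0C read 35.2, 37.1 and 39.2 FPKM in WT, 31.3 and 29.7 in line 5, and 27.7, 34.9 and 30.2 in line 12, and it fell (−0.27 ± 0.078, adjusted p = 0.0192), a call lost without WT replicate 2, without WT replicate 3 or without line 5 replicate 2 (adjusted p = 0.056, 0.0702 and 0.0551). RPP0B, which held 86.1% to 88.9% of the family's FPKM in all libraries, gave −0.033 with a 95% interval from −0.17 to 0.10. The share of RPP0A was 1.92% to 2.03% in WT, 3.27% and 3.01% in line 5, and 4.03%, 4.02% and 4.60% in line 12. RPP1A, RPP2D and RPP3A fell (−0.32, −0.34 and −0.29). The RPP3A call was lost under 7 of 16 alternatives (adjusted p from 0.0643 to 0.127), among them those without WT replicate 1, WT replicate 3, line 5 replicate 2, line 12 replicate 1 or line 12 replicate 3. RPP2E read 0.272, 0.322 and 0.112 FPKM in WT, 1.17 and 0.360 in line 5, and 1.12, 1.53 and 2.29 in line 12, and it entered the test only through RNAi libraries.

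Paralogs of 1 family passed in opposite directions in 4 of the 79 families with at least 2 tested members, P0, L7, L18a and S2. P2 also held a higher and a lower member, but the higher one is RPP2E. In 52 families members passed only as lower, in 5 only as higher, and in 17 none passed. All tested members were lower in 11 families, S3, S11, S12, S28, L4, L11, L15, L17, L27a, L36a and L40. Every call was kept under all 16 alternatives in 3 of these families, S3, L4 and L15. The pair of L40 genes lost their calls under 7 and 5 of 16, both without WT replicate 1, WT replicate 3 or line 5 replicate 2, and RPL11A lost its call under 4, among them those without WT replicate 3 and without line 5 replicate 1. RPL7D, paralog of RPL7B, read 64.3, 64.7 and 72.6 FPKM in WT, 78.7 and 71.8 in line 5, and 77.1, 80.1 and 76.1 in line 12. It overlapped WT in line 5 replicate 2 and rose in the mean of both lines (0.19 ± 0.058, adjusted p = 0.0265). RPL7B held 64.2% to 65.2% of the L7 family in WT, 57.4% and 58.8% in line 5, and 54.7% to 55.2% in line 12, while RPL7D went from 12.9% to 13.1% in WT to 17.99% and 17.65% in line 5 and 19.5% to 20.9% in line 12. The RPL7D call was lost under 6 of 16 alternatives, with adjusted p from 0.0605 to 0.101 there, among them those without WT replicate 1, without WT replicate 2 and without line 5 replicate 1.

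In the S2 family, RPS2C read 303, 309 and 354 FPKM in WT, 277 and 273 in line 5, and 235, 239 and 219 in line 12, and it fell (−0.35 ± 0.064, adjusted p = 0.00237). RPS2D read 20.0, 22.0 and 22.9 FPKM in WT, 30.5 and 23.3 in line 5, and 25.4, 31.1 and 27.5 in line 12, and it rose (0.32 ± 0.10, adjusted p = 0.0277). Neither gene's RNAi libraries overlapped WT, though line 5 replicate 2 of RPS2D was close to it, and the RPS2D call was lost without WT replicate 1, without WT replicate 2 or without line 5 replicate 1 (adjusted p = 0.102, 0.0643 and 0.070). The 3 genes listed as RPS2B have identical coding sequences, so their single values are uncertain. In the L18a family AT2G34480 fell (−0.35 ± 0.059, adjusted p = 0.00162). AT1G29970 (listed as RPL18AA) rose by 0.46 ± 0.15 (adjusted p = 0.0331), but it overlaps its neighbour AT1G29965 on the same strand, with 98.9% of coding bases shared, and its call was lost without any 1 of the 3 WT libraries, the 2 line 5 libraries or line 12 replicate 3 (adjusted p from 0.0545 to 0.121).

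RPS9C, the minor paralog of RPS9B, read 26.3, 28.7 and 31.5 FPKM in WT, 42.5 and 33.0 in line 5, and 43.2, 48.7 and 43.3 in line 12. All RNAi libraries lay above WT, and RPS9C rose (0.50 ± 0.097, adjusted p = 0.00319). Its share of S9 was 6.22% to 7.11% in WT, 9.18% and 7.64% in line 5, and 11.03% to 11.19% in line 12. RPS16B, the minor gene of S16, read 9.46, 9.16 and 10.2 FPKM in WT, 12.1 and 12.2 in line 5, and 13.8, 14.9 and 13.9 in line 12, again without overlap (0.42 ± 0.055, adjusted p = 0.000458). RPL19C and RPS24B, named only to complete the 11 higher members, rose by 0.23 each on the log2 scale (adjusted p = 0.0103 and 0.0429). The groups of RPS24B overlapped, and its call was lost under 10 of 16 alternatives (adjusted p from 0.0568 to 0.158). The remaining higher members were the L18a-like genes AT1G53560 (0.75 ± 0.046) and AT3G14595 (0.70 ± 0.048).

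**Figure D5:**
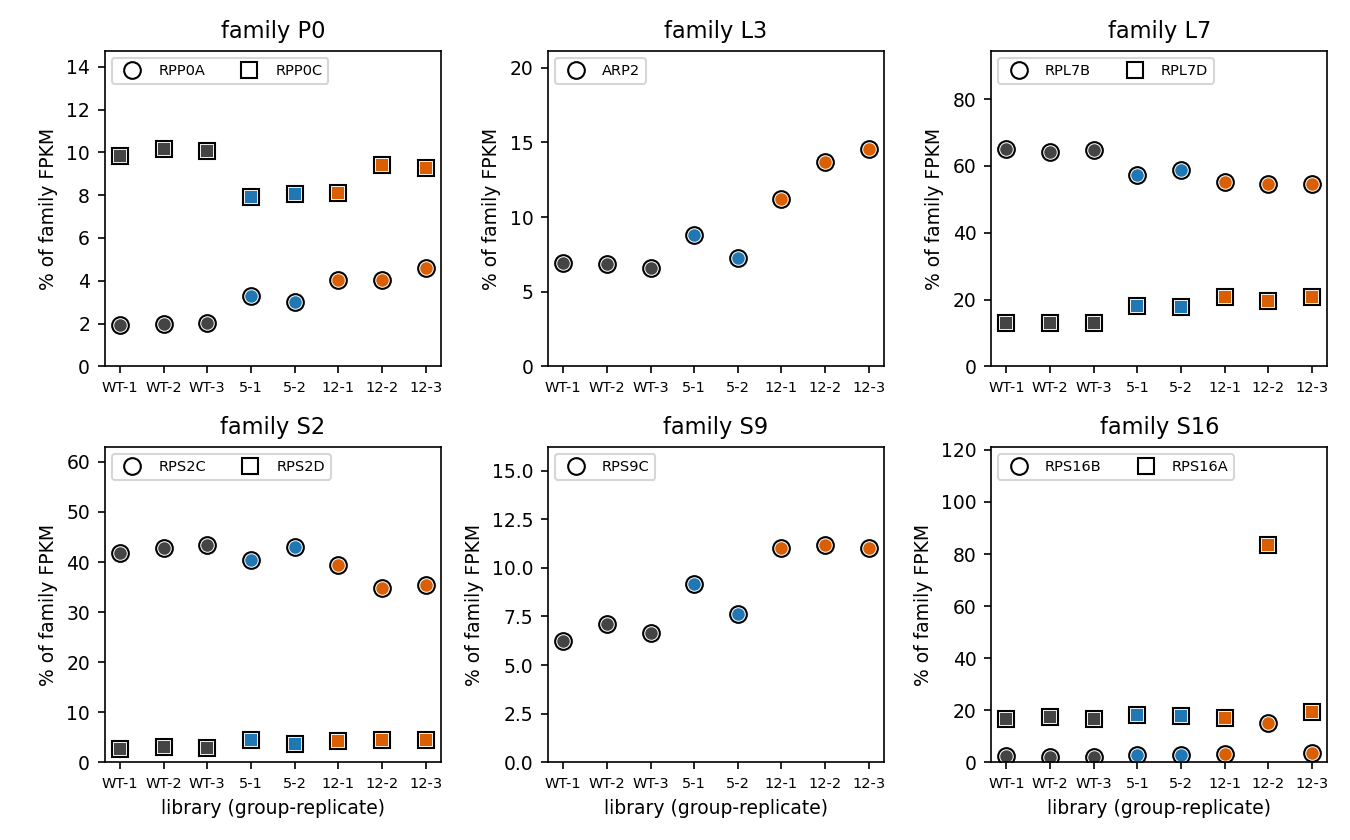
Share of single paralogs in their family's summed FPKM, in percent, for 6 families across the 8 libraries; black, blue and orange fills mark WT, line 5 and line 12. RPP0A, RPL7D, RPS2D and RPS9C take larger shares in every RNAi library than in WT, and the S16 panel shows line 12 replicate 2, in which RPS16C was near 0.

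RPS16C (AT5G18380), the main S16 gene, read 328, 334 and 371 FPKM in WT, 363 and 361 in line 5, and 325, 1.096 and 285 in line 12. Its log2 change of −1.25 did not pass (adjusted p = 0.519) and was −0.052 without line 12 replicate 2. RPS16A, whose coding sequence is 98.2% identical, read 81.6 FPKM in that library and 69.4 and 71.2 in the other line 12 libraries. Among 2077 genes with a mean of at least 50 FPKM, 10 had 1 library under 5% of the median of the other 7, in 6 of the 8 libraries, and RPS16C was the only member among them. Shared reads limit single values elsewhere too: 17 of 272 paralog pairs, with 23 genes, had coding sequences at least 95% identical, and the median pair was 83.8% identical.

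Few members differed between the lines: 3 were higher and 2 lower in line 12, where 9.07% of all tested genes were higher and 9.93% lower. ARP2 (AT1G61580), an L3 gene at the peptidyl transferase center, read 28.3, 28.2 and 29.7 FPKM in WT, 30.9 and 23.7 in line 5, and 36.2, 49.8 and 48.4 in line 12. Line 5 lay around WT and line 12 above both, with a difference between the lines of 0.69 ± 0.15 (adjusted p = 0.019). Its dominant paralog ARP1 read 381, 385 and 421 FPKM in WT, 319 and 301 in line 5, and 287, 314 and 283 in line 12, and the share of ARP2 went from 6.60% to 6.92% in WT to 8.82% and 7.29% in line 5 and 11.2% to 14.6% in line 12. RPL10AB read 284, 246 and 281 FPKM in WT, 223 and 216 in line 5, and 164, 174 and 181 in line 12, lower in line 12 than in line 5 (−0.34 ± 0.079, adjusted p = 0.022). RPL37AC was also lower in line 12 (−0.22 ± 0.059, adjusted p = 0.0402), and the L18a-like genes AT1G53560 and AT3G14595 were higher (0.23 each, adjusted p = 0.0313 and 0.0329). These counts rest on single libraries: the higher count was 1 without line 5 replicate 2 and 0 without line 12 replicate 3. The lower count was 0 without either line 5 library, 1 without line 12 replicate 1, without line 12 replicate 3, without WT replicate 1 or without WT replicate 2, 5 without WT replicate 3 and 7 without line 12 replicate 2.

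Genes around the ribosome, from a list of translation and assembly factors, are read against the 28.1% higher and 28.1% lower of all tested genes in the mean of both lines. All 3 RACK1 genes, whose protein is a scaffold bound to the 40S head, fell, among 4 ribosome-associated genes tested. RACK1A read 268, 267 and 287 FPKM in WT, 181 and 180 in line 5, and 170, 178 and 164 in line 12 (−0.64 ± 0.048, adjusted p = 2.56e-05). Of 15 elongation factor genes 1 rose and 4 fell, a lower count near that background, with the eEF1A genes AT1G07920 and AT1G07930 at −0.87 and −0.79 and the eEF1B gene AT5G12110 at −1.24, while eEF1A gene AT5G60390, the highest of them, gave −0.16 (adjusted p = 0.0661). The gene that rose, ELF5A-1, lost its call under 11 of 16 alternatives, and ELF5A-2, which fell, under 7. LOS1 (AT1G56070) read 353, 112 and 392 FPKM in WT, 92.1 and 97.2 in line 5, and 293, 324 and 294 in line 12. It did not pass in the mean of both lines (−0.56, adjusted p = 0.241) but did in line 5 (−1.39, adjusted p = 0.0434) and between the lines (1.67, adjusted p = 0.0442). WT replicate 2 stood apart from the other WT libraries of this gene.

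Of 14 genes for assembly or export of the 60S subunit, 7 rose and 4 fell, the latter at the background share. The 7 include eIF6B, which read at most 0.216 FPKM in WT and passed the filter through RNAi libraries alone. Its higher call was thus favoured by the filter and supports nothing. Calls were lost under 10 of 16 alternatives for BRX1-1, 4 each for NMD3 and BOP1, and 1 for REIL1. eIF6A (listed as EIF6-2), whose protein keeps free 60S subunits from joining 40S subunits, read 61.9, 61.2 and 65.7 FPKM in WT, 114 and 78.1 in line 5, and 136, 202 and 175 in line 12. WT lay below line 5 and line 5 below line 12 (0.996 ± 0.155 in the mean of both lines, adjusted p = 0.00106). LSG1-1, a GTPase of late 60S maturation, rose from 1.27 ± 0.083 FPKM in WT to 1.89 ± 0.14 in line 5 and 3.58 ± 0.27 in line 12, REIL2 rose by 0.39 on the log2 scale, and EBP1 (listed as ATG2) fell by 0.51. Of 9 genes of the nucleolus and 40S assembly 3 rose and 3 fell, both near the background. Nucleolin gene NUC2 rose (1.14 ± 0.13), and the fibrillarin genes FIB1 and FIB2 fell (−0.50 and −0.45). NOB1 and APUM23, which also rose, lost their calls under 6 and 4 of 16 alternatives. Of 6 regulator genes 2 rose, S6K2 (1.52) and TCP20 (0.48), a factor known to bind site II elements, and 2 fell, S6K1 (−0.66) and RAPTOR1 (−0.13), both counts near the background. The RAPTOR1 call was lost under 11 of 16 alternatives (adjusted p from 0.0521 to 0.192), among them leaving out any 1 library other than line 12 replicate 1.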

How the data were processed

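RNA-seq values of 8 seedling libraries (WT 3, RNAi line 5 2, RNAi line 12 3) were grouped by their titles. TruSeq libraries were made from 1.5 µg of total RNA, per the labels' protocols. Per the submitters' processing notes, HISAT2 and StringTie (no versions) were used with TAIR10. The sources used here give neither annotation version nor strand setting. The authors deposited 1 table of 32833 genes with 1 column for each library, taken as FPKM from the values, since no header states a unit (column sums 590189 to 630761). Of the 3000 lowest values per library, 87.2% to 88.7% times gene length were whole multiples of 1 step (tolerance 0.01), which gave the depth. The file held no counts, so the branch fixed for FPKM was used.

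A gene entered the test with 1 FPKM or more in 2 or more libraries (19395 genes). The test was limma 3.58.1 (R 4.3.3), on log2(FPKM + 1) values, with trended variances and all 3 groups in a single fit, Benjamini-Hochberg adjusted over all genes (threshold 0.05). Fold changes are differences on that scale and understate changes of low genes. The procedure was tested on simulated data. Sums, shares and coding identity (Biopython 1.88, best end-free global alignment) carry no test. Gene positions matched RefSeq TAIR10.1 for all 237 members.

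The members and lists were chosen with earlier results of these data known. The set for naming held the 4 most abundant members per subunit, the 8 highest and 8 lowest in the mean of both lines, the 4 highest and 4 lowest between lines, the 8 families of widest spread, set roles (P proteins, L3, L4, L5, L10, L11, L23a, L24, L27a, L40, S5, S6, S14, S18, S21, S27a) and up to 4 genes per class of translation factors. Counts of named members cover this whole set, but not all of it is described above. RPS23A (log2 0.58) and RPS8B (0.56), both among the 8 highest, did not pass. Alternatives were a pseudocount of 0.1, no filter, a filter at 5 FPKM, median centring, rescaling without ribosomal RNA and organelle genes, a replicate block, fewer groups, and leaving out libraries above 2% ribosomal RNA or each library; leaving out the L18a-like genes was chosen after seeing the data.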

Additional observations from a re-analysis of the deposited data

Results flagged for a closer look

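The change against WT differed between the RNAi lines for 5 named genes by the test of line 12 less line 5 (limma, adjusted over all genes). ARP2 stood 0.6926 higher in line 12 on the log2 scale, AT3G14595 0.2301 higher and AT1G53560 0.2259 higher. RPL10AB differed by −0.3434 and RPL37AC by −0.2152, both lower in line 12. In each of the 5 genes all 3 line 12 libraries lay beyond both line 5 libraries.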

How the results depend on the processing

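Over 16 alternatives, none of the named members whose change passed the test in the mean of both lines changed sign. The median change of both subunits stayed negative, but its size depended on the scaling. With rescaling, the line 12 medians against WT were −0.15 (60S) and −0.16 (40S), against −0.22 and −0.23 in the main fit. Those between the lines were −0.038 and −0.011, against −0.11 and −0.085. The line 5 medians stayed at −0.11 and −0.12. The median of all tested genes moved up too, from −0.0024 to 0.060 in line 12 and from −0.0084 to 0.057 between the lines. Of all members that passed, 32 of the 94 lower and 4 of the 11 higher ones lost their call under at least 1 alternative. Of 54 named members that passed, 36 passed under every alternative in which they were fitted, among them 7 of the 11 higher ones. These 7 include the L18a-like genes AT1G53560 and AT3G14595. They also include RPP2E, which was fitted in 15 of the 16 alternatives and entered the test only through RNAi libraries, so its call supports nothing. Of 29 translation and assembly genes that passed, 20 did so under every alternative in which they were fitted. These include eIF6B, which entered the test only through RNAi libraries.

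In line 5, 4 members were higher with no filter, with median centring and with the replicate block (main 8). The lower count was 26 with the replicate block (main 53). Leaving out the libraries above 2% ribosomal RNA kept 1 library in each RNAi line, so no counts are given for it here, only medians. It is still among the alternatives under which calls were lost. The line 5 medians were then −0.063 (60S) and −0.12 (40S), against −0.11 and −0.12 in the main fit. In line 12, 9 were higher with median centring, 22 with rescaling and 8 without the libraries above 2% ribosomal RNA (main 14), and 73 were lower without those libraries (main 110). Between the lines (main 3 higher, 2 lower), rescaling gave 6 and 1, the replicate block 0 and 0, only the groups compared 0 and 1, and no filter 1 lower. Dropping the libraries above 2% ribosomal RNA gave medians of −0.20 (60S) and −0.18 (40S) between the lines, against −0.11 and −0.085. Without the L18a-like genes 1 was higher. In all of these the cause was not tested.

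Leaving out 1 library at a time gave 4 to 9 higher and 26 to 60 lower in line 5, 9 to 19 and 82 to 121 in line 12, 7 to 15 and 70 to 110 in the mean of both lines, and 0 to 3 and 0 to 7 between the lines. The labels do not say whether the replicate numbers pair the libraries. Deviations of same-numbered libraries from their group means had correlations from −0.298 to 0.163. Within groups of 2 or 3 libraries such deviations depend on each other, so these values cannot decide whether the numbers pair libraries. With the replicate block 8 members were higher and 70 lower in the mean of both lines, and 10 and 87 in line 12. With 2 or 3 libraries a group, small changes may be missed, and reads shared by near-identical paralogs limit single genes.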
